A study of Mus musculus with 8 samples.

Results

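Blood-brain barrier genes and drug efflux pumps were followed in mouse brain and in supratentorial ependymoma driven by a ZFTA-RELA fusion. The members are 10 genes, Cldn5, Ocln, Tjp1, Lsr, Mfsd2a, Slc2a1, Slco1c1, Abcb1a, Abcg2 and Plvap, chosen by name from the 55414 genes of the count table. Each was found there once. All 10 passed the filter on low counts, and the lowest count of any member in any library was 83, for Lsr.

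The endothelial cells of brain capillaries are sealed by tight junctions and move few vesicles, so that nutrients and hormones cross by carriers. ATP-driven pumps in the same cells return many drugs, kinase inhibitors among them, to the blood. Wnt ligands from neural cells induce this state, and where it is missing, as in the choroid plexus and in many brain tumors, capillaries can be fenestrated and express Plvap.

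Read counts per gene were measured in 8 libraries, in 4 groups of 2. Vehicle or MRX-2843 was crossed with tissue labelled naive brain or tumor. MRX-2843 inhibits 2 receptor tyrosine kinases, MERTK and FLT3, and was given by mouth at 50 mg/kg once a day for 5 days to mice whose tumor had been seen by MRI and that were randomised to drug or vehicle, with death 1 h after the final dose. All 8 libraries carry the ZFTA-RELA fusion as their genotype label and the drug's name as their cell line label, naive and vehicle brain included. The labels give no age, strain or sex, give no word on whether the naive tissue is from tumor-bearing mice, and call the libraries of a group duplicates without naming separate animals. The p-values therefore measure the spread between these libraries, which may be technical.

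Library totals ran from 51150569 to 112938462 counts. The libraries labelled MRX-2843 tumor stood closer to naive brain than to vehicle tumor in their cell type markers. The summed level of 8 oligodendrocyte markers was 14097 to 14573 CPM (counts as a share of the TMM-scaled total) in MRX-2843 tumor, 7424 to 7611 in the naive libraries and 487 to 501 in vehicle tumor. That of 8 microglia and macrophage markers was 271 to 274 CPM in MRX-2843 tumor, 207 to 216 in naive brain and 1504 to 1527 in vehicle tumor. No marker of either list was at 0 in any library. How much tumor tissue the MRX-2843 tumor libraries hold was not tested. The mitochondrial share of counts was 3.26% and 3.37% in vehicle tumor and 14.7% to 18.5% elsewhere. The 4 vehicle libraries had 36 to 193 counts of Xist and 2168 to 6717 of the Y-linked Ddx3y, against 25657 to 56676 and 0 in the 4 MRX-2843 libraries. The treatment cannot be told apart from this sex-linked difference, nor from a number in the column names, 909 for every MRX-2843 library and 914 or 915 for vehicle, which the labels do not explain.

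Per kilobase of exon, the member with the highest level in vehicle naive brain was Slc2a1, at 42.7 ± 1.43 CPM per kb (SD, n = 2), followed by Cldn5 at 24.1 ± 2.66, Mfsd2a at 15.2 ± 0.299 and Slco1c1 at 11.2 ± 0.503. Tjp1 at 7.24 ± 0.195, Plvap at 4.76 ± 0.713 and Abcb1a at 4.11 ± 0.404 CPM per kb were intermediate. Abcg2 at 2.47 ± 0.264, Ocln at 1.72 ± 0.121 and Lsr at 1.12 ± 0.0133 CPM per kb were the lowest. Plvap and Abcb1a overlapped between the libraries and cannot be ordered. With the longest transcript as the length, Slco1c1 and Mfsd2a exchanged places and the other 8 members kept theirs. The order was another in vehicle tumor. Cldn5 led there with 117 ± 9.62 CPM per kb, ahead of Slc2a1 with 69.9 ± 2.01 and Mfsd2a with 20.9 ± 0.300, and Plvap was next with 16.3 ± 0.103. Slco1c1 had dropped to 4.30 ± 0.0157 CPM per kb, where it overlapped with Lsr at 4.26 ± 0.226. This place depends on the length used. With the longest transcript, the mean of Slco1c1 in vehicle tumor was 7.01 CPM per kb, above Abcg2 at 6.73 and Lsr at 4.27. The order of the means in MRX-2843 naive brain was that of vehicle naive brain, and in MRX-2843 tumor it differed from that order only in that Abcb1a, at 5.17 ± 0.206 CPM per kb, lay above Plvap, at 3.23 ± 0.658. Neighbours that overlapped between libraries were Plvap with Abcb1a in MRX-2843 naive brain and Abcg2 with Ocln in MRX-2843 tumor.

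**Figure D1:**
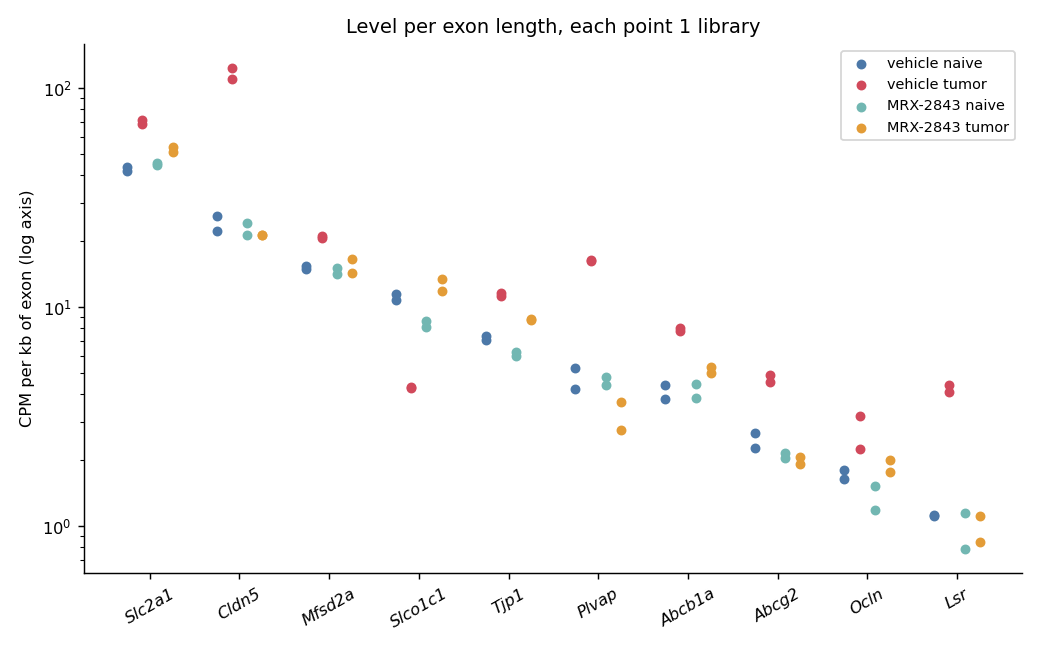
CPM per kilobase of exon (log axis) for each of the 10 members, ordered by their mean in vehicle naive brain, with 1 point per library and 1 color per group. Cldn5 lies above Slc2a1 in the vehicle tumor libraries alone, and Slco1c1 is the member whose vehicle tumor points lie below those of every other group.

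The first comparison asks how the barrier genes of the tumor differed from those of brain under vehicle. Of the 10 members, 9 rose and 1, Slco1c1, fell. Of the 24356 genes tested, 60.1% were called in either direction, 29.3% higher and 30.8% lower, where called means that edgeR's quasi-likelihood test gave a Benjamini-Hochberg adjusted p below 0.05. The median log2 fold change of the members was 0.82, beside -0.03 over all genes tested. The endothelial genes shared by vessels of most organs moved with them. All 12 of a list of these rose, with a median log2 fold change of 1.54, and their summed level was 611 to 631 CPM in vehicle tumor against 220 to 228 in vehicle naive brain. Kdr, the main VEGF receptor, rose by 2.75 ± 0.15, Cdh5 by 2.34 ± 0.11, Eng, a TGF-beta co-receptor, by 1.73 ± 0.08 and the adhesion molecule Pecam1 by 1.42 ± 0.11 on the log2 scale. In bulk tissue a change in the number of endothelial cells and a change in RNA per cell cannot be told apart. Neuron markers summed to 339 to 344 CPM in vehicle tumor against 5848 to 5992 in naive brain, and 8 of 8 fell, with a median of -5.32. Rbfox3 fell least, by 0.17 ± 0.05 on the log2 scale, from a mean of 232 CPM to 207, the largest term of the vehicle tumor sum. When the fit held only the vehicle libraries, without those of the MRX-2843 groups, the counts were again 9 members higher and 1 lower.

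The second comparison asks what the drug groups show in tissue labelled tumor. Against vehicle tumor, 9 members were lower in MRX-2843 tumor and Slco1c1 was higher. Over all genes tested 60.4% were called, 30.6% higher and 29.8% lower, and the median log2 fold change was -0.57 for the members and 0.03 for all genes. This comparison shares the vehicle tumor libraries with the first, so the values of both depend on them. The summed level of the 12 shared endothelial genes was 244 to 255 CPM in MRX-2843 tumor, and 11 of the 12 fell, with a median of -1.47. The remaining one, Flt1, had a log2 fold change of -0.02 ± 0.08 (SE; adjusted p = 0.873, edgeR's quasi-likelihood test).

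**Figure D2:**
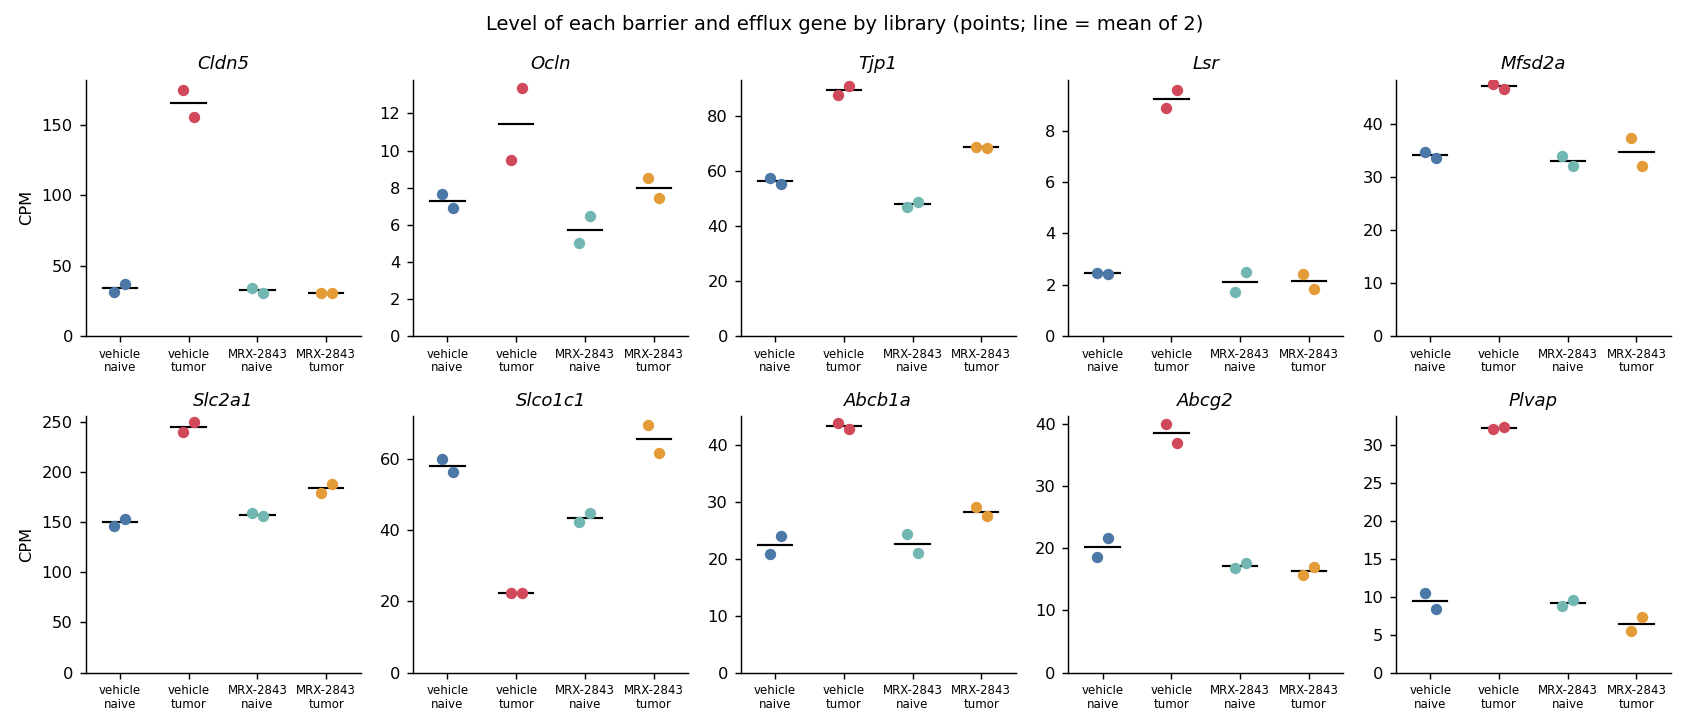
CPM of each member in the 8 libraries, 1 panel per gene and 1 point per library, with a bar at each group's mean. In 9 panels the vehicle tumor points lie above every other library, and in the Slco1c1 panel they lie below.

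The 250 bases upstream of the start are shown for 4 genes. Cldn5 and Slco1c1 had the largest rise and the only fall among the members in vehicle tumor. Abcb1a and Abcb1b, the paralogs that encode P-glycoprotein, moved by different amounts, and their RefSeq starts lie 231056 bases apart on chromosome 5. The windows are RefSeq sequences on GRCm38.p6, at chr5:8566841-8567090 for Abcb1a, chr5:8797897-8798146 for Abcb1b, chr16:18776597-18776846 for Cldn5 and chr6:141524104-141524353 for Slco1c1, all on the plus strand. The RefSeq start of Abcb1a lies 92986 bases upstream of the start in GENCODE M21, so the window may not be that of the transcript counted. Capitals mark AGGAAG, the core bound by ETS factors, and CTTTGA, the core bound by TCF and LEF factors of Wnt signalling, on either strand.
Abcb1a: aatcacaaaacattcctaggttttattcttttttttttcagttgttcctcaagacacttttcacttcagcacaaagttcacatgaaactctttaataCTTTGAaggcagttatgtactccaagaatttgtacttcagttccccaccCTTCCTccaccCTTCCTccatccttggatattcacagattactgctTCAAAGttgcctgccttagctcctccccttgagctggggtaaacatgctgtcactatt
Abcb1b: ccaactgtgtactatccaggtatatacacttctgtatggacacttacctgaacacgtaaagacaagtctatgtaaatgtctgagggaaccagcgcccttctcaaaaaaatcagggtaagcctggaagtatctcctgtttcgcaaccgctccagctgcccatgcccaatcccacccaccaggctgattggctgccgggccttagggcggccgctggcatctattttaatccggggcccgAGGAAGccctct
Cldn5: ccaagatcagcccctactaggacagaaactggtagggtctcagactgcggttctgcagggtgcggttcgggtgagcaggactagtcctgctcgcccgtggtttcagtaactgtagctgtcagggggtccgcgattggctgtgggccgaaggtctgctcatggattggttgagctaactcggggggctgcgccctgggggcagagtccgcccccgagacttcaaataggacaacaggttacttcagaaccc
Slco1c1: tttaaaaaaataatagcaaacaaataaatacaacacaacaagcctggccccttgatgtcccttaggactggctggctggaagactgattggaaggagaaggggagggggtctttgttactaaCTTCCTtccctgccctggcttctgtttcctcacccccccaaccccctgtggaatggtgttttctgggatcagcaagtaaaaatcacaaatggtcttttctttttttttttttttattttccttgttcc
The Abcb1a window holds AGGAAG at 104 and 93 bases before the start and CTTTGA at 153 and 58, and that of Abcb1b holds AGGAAG at 12. Slco1c1 has AGGAAG at 128 bases before its start, and Cldn5 has no match to either. ACAATG, a core bound by SOX factors, was also searched and is in none of the 4. Over 32851 RefSeq promoters of the same length, 29.5% hold AGGAAG, 13.8% CTTTGA and 10.7% ACAATG. RefSeq windows were found for 9 of the 10 members. Matches to CTTTGA were also found for Lsr and Mfsd2a, and matches to AGGAAG for each of the 3 starts of Abcg2. One of these starts also has ACAATG, at 158 bases before it, the only match to that motif among the members, while Ocln, Tjp1 and Slc2a1 had none of the 3 motifs. No matches overlapped each other.

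Gene positions are those of GENCODE M21 on GRCm38. Cldn5 (chr16:18776847-18778262, plus strand) encodes claudin-5, the main sealing claudin of brain endothelium. It measured 31.4 and 36.7 CPM in the vehicle naive libraries, 175 and 156 in vehicle tumor, 34.3 and 30.2 in MRX-2843 naive and 30.3 and 30.2 in MRX-2843 tumor. The vehicle tumor pair was far above the other 6 libraries, which ran from 30.2 to 36.7 and overlapped. Cldn5 was 4.85-fold higher in vehicle tumor than in vehicle naive brain (log2 fold change 2.28 ± 0.09 SE, adjusted p = 1.18e-11 by edgeR's quasi-likelihood test). Its log2 fold change in MRX-2843 tumor against vehicle tumor was -2.45 ± 0.09 (adjusted p = 6.31e-12). Lsr (chr7:30957770-30973464, minus strand) encodes the lipolysis-stimulated lipoprotein receptor, a protein of the tricellular junctions where 3 cells meet. It was scarce, at 2.45 and 2.41 CPM in vehicle naive brain, 8.90 and 9.60 in vehicle tumor, 1.70 and 2.49 in MRX-2843 naive and 2.43 and 1.84 in MRX-2843 tumor. The vehicle tumor libraries again stood alone, with a log2 fold change of 1.93 ± 0.28 against vehicle naive brain (adjusted p = 2.3e-05) and -2.12 ± 0.28 for MRX-2843 tumor against vehicle tumor (adjusted p = 1.02e-05). Lsr overlaps Gm4673 on the opposite strand, which measured 3.35 to 6.95 CPM, and the strand setting of the counting is not given in the sources used here, so reads of the pair cannot be separated.

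Ocln (chr13:100496507-100552718, minus strand) encodes occludin, a membrane protein of the tight junction strand. Its level was 7.64 and 6.91 CPM in vehicle naive brain, 9.50 and 13.4 in vehicle tumor, 5.00 and 6.45 in MRX-2843 naive and 8.51 and 7.45 in MRX-2843 tumor. The vehicle tumor libraries were the highest but far apart from each other. The rise of 0.65 ± 0.20 (log2, adjusted p = 0.0126 by edgeR's quasi-likelihood test) was lost without vehicle tumor replicate 2 (0.39, adjusted p = 0.205) and without vehicle naive replicate 2 (0.59, adjusted p = 0.0726). The fall in MRX-2843 tumor, a log2 fold change of -0.52 ± 0.20 with an adjusted p of 0.0402, was lost without vehicle tumor replicate 2 (-0.25, adjusted p = 0.415) or either MRX-2843 tumor library (adjusted p = 0.053 and 0.154), and in DESeq2 (adjusted p = 0.0526). Tjp1 (chr7:65296165-65527781, minus strand) encodes ZO-1, the scaffold that ties junction proteins to actin, and is made by many cell types besides endothelium. It stood at 57.6 and 55.4 CPM in vehicle naive brain, 87.7 and 91.1 in vehicle tumor, 46.9 and 48.9 in MRX-2843 naive and 68.8 and 68.4 in MRX-2843 tumor. For Tjp1 the 4 groups were ordered without overlap, with MRX-2843 naive brain the lowest, then vehicle naive brain, MRX-2843 tumor and vehicle tumor. Its log2 fold change was 0.66 ± 0.07 for vehicle tumor against naive brain (adjusted p = 4.52e-07) and -0.38 ± 0.07 for MRX-2843 tumor against vehicle tumor (adjusted p = 0.000139).

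Of 12 other junction and scaffold genes, 5 rose in vehicle tumor, 4 fell and 3 were not called, with a median log2 fold change of 0.59. Over all genes tested, 29.3% were higher and 30.8% lower, so these counts are not particular to junction genes. F11r, which encodes the junctional adhesion molecule JAM-A, rose by 3.04 ± 0.13 from a mean of 8.64 CPM to 70.9, and Jam2, its relative of vascular endothelium, by 1.78 ± 0.08 from 32.7 CPM to 112.7. The part of microglia and macrophages, whose markers rose 8 of 8, was not tested. Cingulin, a cytoplasmic plaque protein of the junction encoded by Cgn, went the other way, from 7.98 and 7.09 CPM in vehicle naive brain to 0.393 and 0.318 in vehicle tumor. Cgn fell by 4.40 ± 0.21 on the log2 scale (adjusted p = 7.86e-11, edgeR's quasi-likelihood test), and in MRX-2843 tumor it was at 10.2 and 10.5 CPM. Of the other claudins of brain endothelium that were listed, Cldn12 fell in vehicle tumor by 1.21 ± 0.11 (adjusted p = 1.44e-07). Cldn3, at 0.328 to 0.567 CPM in these 4 libraries, had a log2 fold change of 0.64 ± 0.85 (adjusted p = 0.541). Of the 12, 5 rose in MRX-2843 tumor against vehicle tumor and 4 fell, with F11r at -2.83 ± 0.13, Jam2 at -1.91 ± 0.08 and Cldn12 at 1.00 ± 0.11 on the log2 scale. Over all genes tested, 30.6% were higher there and 29.8% lower.

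Slc2a1 (chr4:119108711-119137983, plus strand) encodes GLUT1, the glucose carrier of brain capillaries, which glia and tumor cells also use. Its level was 146 and 153 CPM in vehicle naive brain, 239.9 and 249.9 in vehicle tumor, 159 and 156 in MRX-2843 naive and 179 and 188 in MRX-2843 tumor. MRX-2843 tumor lay between the naive groups and vehicle tumor, with no overlap. The log2 fold change was 0.71 ± 0.06 in vehicle tumor against naive brain (adjusted p = 2.41e-08, edgeR's quasi-likelihood test) and -0.41 ± 0.06 in MRX-2843 tumor against vehicle tumor (adjusted p = 1e-05). Mfsd2a (chr4:122946850-122961188, minus strand) encodes the carrier of lysophosphatidylcholine with docosahexaenoic acid, and it also holds down vesicle transport across brain endothelium. It measured 34.6 and 33.7 CPM in vehicle naive brain, 47.6 and 46.6 in vehicle tumor, 34.0 and 32.0 in MRX-2843 naive and 37.4 and 32.1 in MRX-2843 tumor. The changes were among the smallest of the members, 0.46 ± 0.09 (adjusted p = 0.000427) and -0.44 ± 0.09 (adjusted p = 0.000711) in the same comparisons, and the other 3 groups overlapped.

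Slco1c1 (chr6:141524368-141570177, plus strand) encodes OATP1C1, a thyroxine carrier that in mouse brain is made by endothelium and also by astrocytes and the choroid plexus. It was the one member that fell in the tumor, from 59.8 and 56.1 CPM in vehicle naive brain to 22.3 and 22.2 in vehicle tumor. MRX-2843 tumor had 69.5 and 61.6 CPM, beside 42.2 and 44.7 in MRX-2843 naive brain, so that no 2 groups overlapped. The log2 fold change was -1.38 ± 0.08 for vehicle tumor against naive brain (adjusted p = 1.33e-09, edgeR's quasi-likelihood test) and 1.56 ± 0.08 for MRX-2843 tumor against vehicle tumor (adjusted p = 3.53e-10). The summed level of 8 astrocyte markers was 2995 to 2996 CPM in vehicle naive brain, 1338 in both vehicle tumor libraries, 2818 to 2847 in MRX-2843 naive and 3469 to 3543 in MRX-2843 tumor. Most of the lower sum in vehicle tumor lay in Slc1a2, with a mean of 1468 CPM in naive brain and 252 in tumor, and Aldoc, with 784 and 327. Of the 8, 5 fell in vehicle tumor, Aqp4 rose, and Gja1 and Fgfr3 were not called, with a median log2 fold change of -0.33. The shares over all genes tested were 30.8% lower and 29.3% higher. In MRX-2843 against vehicle naive brain, where Slco1c1 was lower, 4 of the 8 were higher and 2 lower, with a median of 0.14. Over all genes tested, 9.78% were higher there and 11.7% lower. The 2 lower markers were Slc1a2, with a mean of 1113 CPM beside 1468 in vehicle naive brain, and Aqp4, with 54.7 beside 78.6. None of the 8 was at 0 in any library, and their part in the Slco1c1 results was not tested. The ratio of Slco1c1 counts to Slc2a1 counts within a library was 0.409 and 0.366 in vehicle naive brain, 0.0931 and 0.0889 in vehicle tumor, 0.266 and 0.287 in MRX-2843 naive and 0.388 and 0.327 in MRX-2843 tumor.

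Of 15 other carriers and receptors of brain capillaries, 9 rose in vehicle tumor, 3 fell and 3 were not called, with a median log2 fold change of 1.07. Slc7a5, which encodes LAT1, a carrier of large neutral amino acids, rose by 2.69 ± 0.07, from 78.5 and 78.7 CPM to 501 and 511. Slco2b1, an organic anion carrier, rose by 2.61 ± 0.09. Microglia and macrophage markers also rose, 8 of 8, and their part in these rises was not tested. Lrp8, a receptor of reelin and apolipoprotein E that neurons also make, fell by 1.80 ± 0.07. Of the 15, 12 fell and 3 rose in MRX-2843 tumor against vehicle tumor, with a median of -0.96. The shares over all genes tested were 29.3% higher and 30.8% lower in the first of these comparisons. In the second they were 30.6% and 29.8%. Slc7a5 was at 76.7 and 91.3 CPM in MRX-2843 tumor, next to 77.6 and 74.7 in MRX-2843 naive brain.

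Abcb1a and Abcb1b are the mouse genes of P-glycoprotein, and Abcb1a (chr5:8660077-8748575, plus strand) is the form of brain capillaries. Abcb1a measured 21.0 and 24.1 CPM in vehicle naive brain, 44.0 and 42.8 in vehicle tumor, 24.4 and 21.0 in MRX-2843 naive and 29.2 and 27.6 in MRX-2843 tumor. MRX-2843 tumor lay above both naive groups and below vehicle tumor. Of the windows printed, that of Abcb1a is the one with matches to both motifs. Abcb1a rose by 0.95 ± 0.11 on the log2 scale in vehicle tumor (adjusted p = 1.64e-06, edgeR's quasi-likelihood test), and its log2 fold change in MRX-2843 tumor against vehicle tumor was -0.61 ± 0.11 (adjusted p = 0.000132). Abcb1b, which is not among the 10, was at 2.63 and 3.28 CPM in vehicle naive brain, 41.7 and 41.2 in vehicle tumor, 3.90 and 3.64 in MRX-2843 naive and 5.52 and 4.79 in MRX-2843 tumor. It was 14.0-fold higher in vehicle tumor than in vehicle naive brain (log2 fold change 3.81 ± 0.16, adjusted p = 1.79e-11), and its log2 fold change in MRX-2843 tumor against vehicle tumor was -3.01 ± 0.15 (adjusted p = 1.93e-10). Within libraries, there were 0.125 and 0.136 counts of Abcb1b for each count of Abcb1a in vehicle naive brain, 0.949 and 0.962 in vehicle tumor, 0.160 and 0.173 in MRX-2843 naive and 0.189 and 0.174 in MRX-2843 tumor. The paralogs are alike in sequence, so the division of reads between them depends on how the counting treated reads that match both, which is not given in the sources used here.

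**Figure D3:**
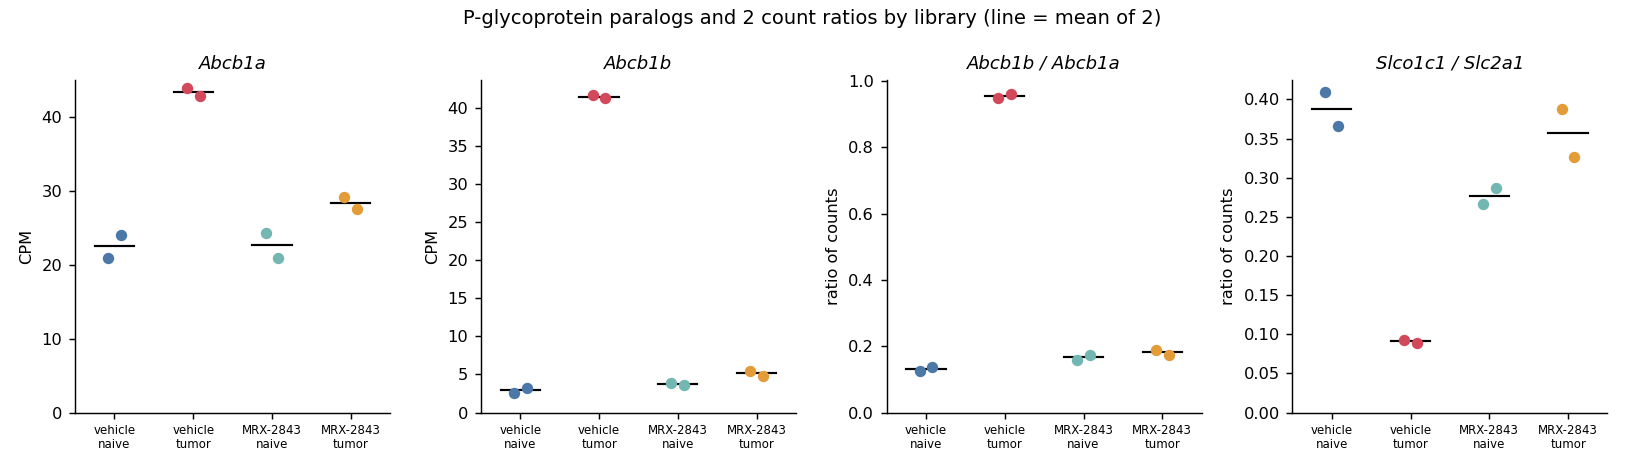
CPM of Abcb1a and Abcb1b and the ratio of counts within each library for Abcb1b over Abcb1a and for Slco1c1 over Slc2a1, with 1 point per library and a bar at each group's mean. The vehicle tumor points stand apart for Abcb1b over Abcb1a, where they reach 0.949 and 0.962, and for Slco1c1 over Slc2a1, where they are 0.0931 and 0.0889.

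Abcg2 (chr6:58584523-58695676, plus strand) encodes BCRP, the other main drug pump of the barrier. It measured 18.6 and 21.7 CPM in vehicle naive brain, 40.0 and 36.97 in vehicle tumor, 16.8 and 17.6 in MRX-2843 naive and 15.7 and 16.97 in MRX-2843 tumor. The vehicle tumor libraries were the highest, the MRX-2843 groups overlapped, and vehicle naive brain lay between. The rise in vehicle tumor, 0.93 ± 0.11 on the log2 scale, was close in size to that of Abcb1a (adjusted p = 3.48e-06, edgeR's quasi-likelihood test). In MRX-2843 tumor against vehicle tumor its log2 fold change was -1.24 ± 0.11 (adjusted p = 1.87e-07), beside -0.61 for Abcb1a. The ratio of Abcb1a to Abcg2 counts was 1.13 and 1.11 in vehicle naive brain, 1.10 and 1.16 in vehicle tumor, 1.46 and 1.19 in MRX-2843 naive and 1.86 and 1.62 in MRX-2843 tumor. Of 9 other ABC pumps, 3 rose in vehicle tumor, 2 fell and 4 were not called, with a median log2 fold change of 0.03. These counts are near the shares over all genes tested, 29.3% higher and 30.8% lower. Besides Abcb1b, Abcc4, a pump of organic anions and nucleotide analogs, rose by 1.38 ± 0.14. Abcb4, the phosphatidylcholine flippase beside the Abcb1 genes, fell by 2.09 ± 0.26, and Abcc5, a nucleotide pump, fell by 1.96 ± 0.05 from 242 and 244 CPM to 60.6 and 64.1. Of the 9, 3 rose and 3 fell in MRX-2843 tumor against vehicle tumor, with Abcc5 at 2.29 ± 0.05, Abcb4 at 1.95 ± 0.26 and Abcc4 at -0.64 ± 0.13 on the log2 scale. Here too the counts are near the shares over all genes tested, 30.6% higher and 29.8% lower.

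Plvap (chr8:71497765-71511752, minus strand), a mark of fenestrated vessels, encodes the protein of the diaphragms that span fenestrae and caveolae. Its level was 10.4 and 8.45 CPM in vehicle naive brain, 32.2 and 32.5 in vehicle tumor, 8.78 and 9.55 in MRX-2843 naive and 5.49 and 7.34 in MRX-2843 tumor. Vehicle tumor was the highest group and MRX-2843 tumor the lowest, below all 4 naive libraries. The log2 fold change was 1.77 ± 0.16 for vehicle tumor against naive brain (adjusted p = 1.32e-07, edgeR's quasi-likelihood test) and -2.33 ± 0.16 for MRX-2843 tumor against vehicle tumor (adjusted p = 8.27e-09). Choroid plexus markers, whose vessels express Plvap, summed to 20.4 to 22.5 CPM in vehicle naive brain, 27.05 to 27.3 in vehicle tumor, 35.5 to 37.1 in MRX-2843 naive and 13.6 to 20.8 in MRX-2843 tumor. Single genes carried these sums, Slc13a4 with a mean of 22.7 CPM in vehicle tumor and Clic6 with 19.8 in MRX-2843 naive brain. Of the 8 markers, Slc13a4 rose in vehicle tumor by 0.67 ± 0.22, Ttr and Clic6 fell by 1.11 ± 0.30 and 1.05 ± 0.31, and 5 were not called. Slc4a5 had 0 counts in 3 libraries, and the markers' part in the Plvap result was not tested. The Plvap gene overlaps Gtpbp3 on the other strand, which measured 24.1 to 28.1 CPM and had a log2 fold change of -0.07 ± 0.10 in vehicle tumor (adjusted p = 0.597). Of 16 genes of caveolae, permeability and vessel activation, 14 rose in vehicle tumor, 1 fell and 1 was not called, with a median of 2.53. Over all genes tested, 29.3% were higher and 30.8% lower there, and 30.6% and 29.8% in MRX-2843 tumor against vehicle tumor. Icam1, an adhesion molecule for leukocytes that immune cells also make, went from 1.59 and 1.47 CPM to 244 and 257, a log2 fold change of 7.35 ± 0.11. The microglia and macrophage markers, of which 8 of 8 rose, moved with it, and their part was not tested. Vcam1 rose by 2.35 ± 0.09 and the caveolar coat gene Cavin2 by 2.30 ± 0.12, while Vegfa, the ligand that raises vessel permeability, rose by 0.53 ± 0.07. Sele and Selp, the endothelial selectins, had 0 counts in both vehicle naive libraries, which allows up to 3 counts in each, and 14 to 164 in vehicle tumor. Of the 16, 13 fell and 1 rose in MRX-2843 tumor against vehicle tumor, and Vegfa had a log2 fold change of 0.05 ± 0.07 (adjusted p = 0.578).

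**Figure D4:**
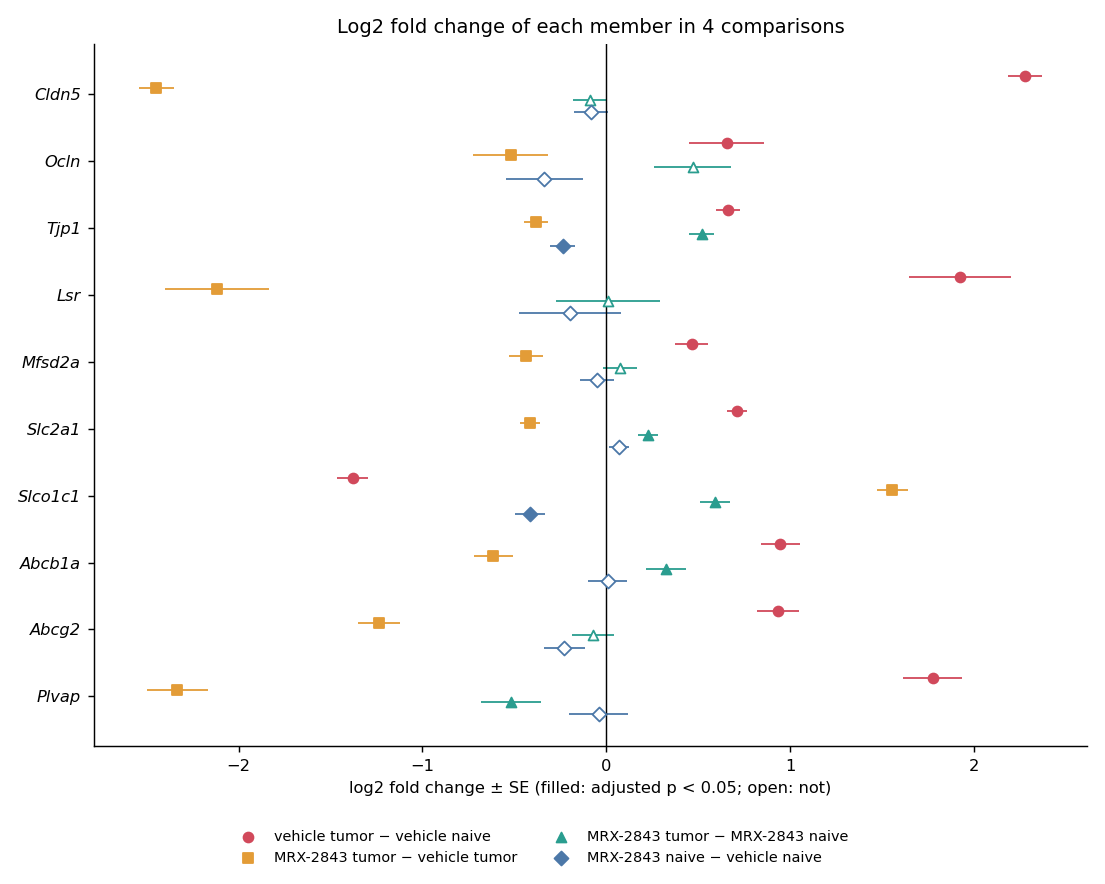
Log2 fold change of each member with its SE in 4 comparisons, with filled symbols where the adjusted p is under 0.05. For every member the points of vehicle tumor against naive brain and of MRX-2843 tumor against vehicle tumor lie on opposite sides of 0; both use the vehicle tumor libraries.

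To set the members against a common endothelial level, their counts were also fitted relative to the summed counts of the 12 shared endothelial genes. These 12 did not move alike: against their own sum 4 were higher in vehicle tumor, 3 lower and 5 not called. Values on this scale thus depend on the genes summed and are not levels per vessel cell. On that scale, Cldn5 rose in vehicle tumor, 7 members fell and 2 were not called, beside 72.2% of all genes called, 10.6% higher and 61.7% lower. The median log2 fold change was -0.65 for the members and -1.49 for all genes. Cldn5 went from 143 and 161 counts per 1000 endothelial counts in vehicle naive brain to 286 and 246 in vehicle tumor, a log2 difference of 0.81 ± 0.10 (adjusted p = 1.2e-06, edgeR's quasi-likelihood test). Slc2a1 went from 664 and 673 to 393 and 396 per 1000, Mfsd2a from 157 and 148 to 77.9 and 73.9, and Slco1c1 from 272 and 246 to 36.6 and 35.2. In log2 differences these were -0.76 ± 0.06, -1.01 ± 0.10 and -2.85 ± 0.10. Abcb1a fell from 95.2 and 106 to 71.9 and 67.9 per 1000 (log2 difference -0.52 ± 0.11, adjusted p = 0.000501) and Abcg2 from 84.5 and 95.2 to 65.5 and 58.6 (-0.53 ± 0.12, adjusted p = 0.000564). Ocln and Tjp1 had log2 differences of -0.82 ± 0.21 and -0.81 ± 0.08. Plvap, at 52.7 and 51.5 per 1000 in vehicle tumor beside 47.4 and 37.1 in vehicle naive brain, had a log2 difference of 0.30 ± 0.17 (adjusted p = 0.115), and Lsr one of 0.45 ± 0.30 (adjusted p = 0.19). The value of Plvap was -0.09 when the endothelial sum held 5 genes only, and 0.49 with an adjusted p of 0.0432 without vehicle naive replicate 1. Of the 9 members that rose in CPM, 1 was thus higher on this scale, 2 were not called and 6 were lower. The 7 of 10 members lower are near the 61.7% over all genes, so this count is not particular to the members.

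Relative to the same endothelial sum, MRX-2843 tumor against vehicle tumor had 6 members higher and 3 lower, beside 71.2% of all genes called, 60.7% higher and 10.5% lower. The count of members higher is near the share over all genes and is not particular to them. The median log2 difference was 0.75 for the members and 1.35 for all genes. Of the 12 genes in the sum, 4 were higher, 5 lower and 3 not called. Slco1c1 at 2.87, Tjp1 at 0.93, Slc2a1 at 0.90, Mfsd2a at 0.88, Ocln at 0.80 and Abcb1a at 0.70 were higher on the log2 scale. Cldn5, at 124 and 119 counts per 1000 endothelial counts in MRX-2843 tumor, had a log2 difference of -1.13 (adjusted p = 2.04e-08, edgeR's quasi-likelihood test). Plvap went from 52.7 and 51.5 to 22.5 and 28.8 per 1000, a log2 difference of -1.02 ± 0.17 (adjusted p = 4.25e-05). Lsr had -0.80 ± 0.31 (adjusted p = 0.0288), which was lost with the sum of 5 genes (-0.23, adjusted p = 0.519) and without vehicle tumor replicate 1, vehicle tumor replicate 2 or MRX-2843 tumor replicate 2 (adjusted p = 0.0653, 0.0952 and 0.192). Abcg2, at 64.3 and 66.6 per 1000, had a log2 difference of 0.08 ± 0.12 (adjusted p = 0.569), and 0.63 with the sum of 5 genes (adjusted p = 0.000222).

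**Figure D5:**
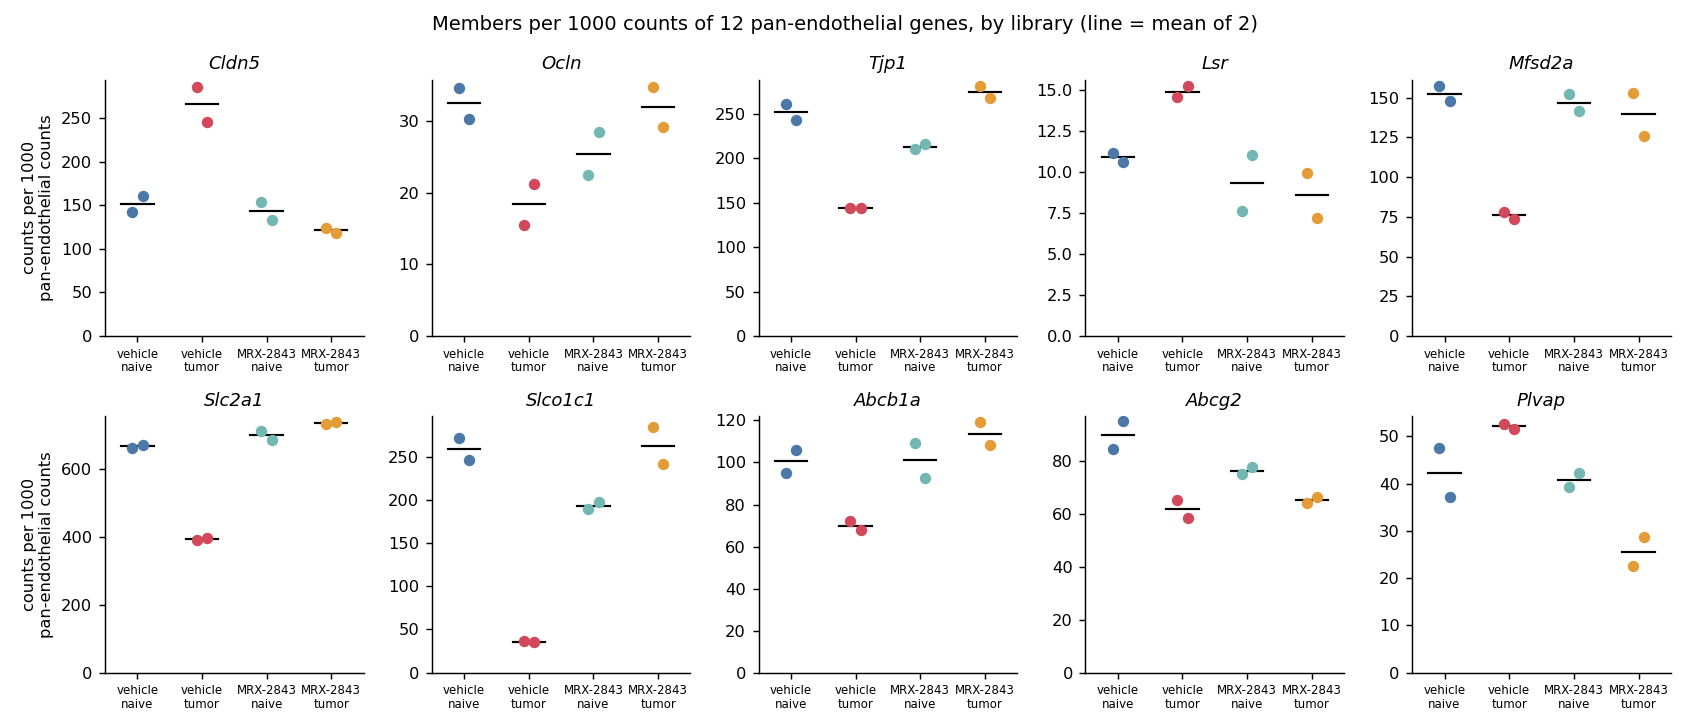
Counts of each member per 1000 counts of the 12 shared endothelial genes, 1 panel per gene and 1 point per library, with a bar at each group's mean. The vehicle tumor points of Cldn5, 286 and 246, lie above the other groups, and those of Slco1c1, 36.6 and 35.2, lie far below.

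The third comparison set MRX-2843 tumor against MRX-2843 naive brain. Of the 10 members, 4 were higher, 1 was lower and 5 were not called, beside 24.4% of all genes called, 12.4% higher and 11.9% lower. Slco1c1 was higher by 0.59 ± 0.08 on the log2 scale (adjusted p = 8.91e-05, edgeR's quasi-likelihood test), Tjp1 by 0.52 ± 0.07 (adjusted p = 4.57e-05) and Slc2a1 by 0.22 ± 0.06 (adjusted p = 0.00763). The last was lost without MRX-2843 tumor replicate 2 (adjusted p = 0.0505). Abcb1a was higher by 0.33 ± 0.11 (adjusted p = 0.0393), which was lost without MRX-2843 naive replicate 2 (0.22, adjusted p = 0.297) and without either MRX-2843 tumor library (adjusted p = 0.174 and 0.0555). Plvap was lower, with a log2 fold change of -0.52 ± 0.16 (adjusted p = 0.0324). That call was lost without MRX-2843 naive replicate 2 (-0.45, adjusted p = 0.143), without MRX-2843 tumor replicate 1 (-0.32, adjusted p = 0.281) and when only the groups compared were fitted (adjusted p = 0.055). Cldn5, at -0.09, and Abcg2, at -0.07, were not called (adjusted p = 0.585 and 0.734), and neither were Ocln at 0.47, Mfsd2a at 0.08 and Lsr at 0.01 (adjusted p = 0.127, 0.645 and 1). Among the cell type markers, 8 of 8 oligodendrocyte genes were higher in MRX-2843 tumor, with a median of 1.02, and 2 of the 12 shared endothelial genes were higher and 1 lower.

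The difference between the treatments in the change from naive brain to tumor was itself tested. It passed for 8 of the 10 members, 7 lower and 1 higher, beside 51.6% of all genes called, 25.3% lower and 26.3% higher. Cldn5 had the largest difference among the members, -2.37 ± 0.13 on the log2 scale (adjusted p = 6.68e-10, edgeR's quasi-likelihood test), next to Plvap at -2.29 ± 0.23 and Slco1c1 at 1.97 ± 0.12. Abcg2 differed by -1.01 ± 0.16 (adjusted p = 8.13e-05) and Abcb1a by -0.62 ± 0.15 (adjusted p = 0.00284). Mfsd2a differed by -0.39 ± 0.13 (adjusted p = 0.021), which was lost without vehicle naive replicate 2, MRX-2843 naive replicate 1 or MRX-2843 tumor replicate 2 (adjusted p = 0.0646, 0.0606 and 0.094). Ocln at -0.18 (adjusted p = 0.642) and Tjp1 at -0.14 (adjusted p = 0.223) did not pass, though Tjp1 passed on library totals without scaling (-0.36, adjusted p = 0.0038).

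In brain labelled naive, 2 members were lower with MRX-2843 than with vehicle and 8 were not called, beside 21.5% of all genes called, 9.78% higher and 11.7% lower. The 2 were Slco1c1 at a log2 fold change of -0.41 ± 0.08 (adjusted p = 0.00184, edgeR's quasi-likelihood test) and Tjp1 at -0.24 ± 0.07 (adjusted p = 0.0194). None was higher in edgeR's test, and likewise 0 at an unadjusted p under 0.05 and 0 in DESeq2. The Tjp1 call was lost without vehicle naive replicate 1, vehicle naive replicate 2 or MRX-2843 naive replicate 1 (adjusted p = 0.157, 0.0606 and 0.115). Ocln at -0.34 ± 0.21 and Abcg2 at -0.23 ± 0.11 had no overlap between the groups but were not called (adjusted p = 0.306 and 0.193). Abcb1a at 0.01 and Cldn5 at -0.08 were not called either (adjusted p = 0.994 and 0.622). Neuron markers differed between these groups, with 3 of 8 higher and 5 lower and a sum of 2932 to 3020 CPM against 5848 to 5992 in vehicle naive brain. Their part in the Slco1c1 and Tjp1 results was not tested.

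Signals that induce and keep the barrier were measured too. Of 17 such genes, 12 rose in vehicle tumor, 2 fell and 3 were not called, beside 29.3% of all genes higher and 30.8% lower. The median log2 fold change of the 17 was 0.81. The 2 that fell encode the Wnt ligands. Wnt7b was at 51.8 and 47.6 CPM in vehicle naive brain, 9.23 and 7.75 in vehicle tumor, 23.9 and 24.9 in MRX-2843 naive and 29.6 and 27.6 in MRX-2843 tumor. Its log2 fold change was -2.55 ± 0.11 in vehicle tumor against naive brain (adjusted p = 3.08e-11, edgeR's quasi-likelihood test), and that of Wnt7a was -2.54 ± 0.25 (adjusted p = 3.68e-07). Both ligands are also made by neurons, whose markers fell in the same libraries, and the part of neurons in these values was not tested. Lrp5, a Wnt co-receptor, rose by 3.65 ± 0.15, from 10.05 and 8.97 CPM to 116 and 124. Apcdd1, a target and inhibitor of Wnt signalling, rose by 2.40 ± 0.09, from 34.9 and 37.2 CPM to 190.4 in both libraries. In MRX-2843 tumor against vehicle tumor 12 of the 17 fell and 2 rose, with Wnt7b at 1.75 ± 0.11, Wnt7a at 2.13 ± 0.25, Lrp5 at -3.33 ± 0.15 and Apcdd1 at -2.32 ± 0.09 on the log2 scale. The shares over all genes tested were 29.8% lower and 30.6% higher there.

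The genes closest to each member in pattern were found among 12695 genes with a mean log2 CPM of at least 2, by the root mean square difference of log2 CPM over the 8 libraries after each gene's mean was subtracted. That of Cldn5 was Cdh5, the adhesion molecule VE-cadherin of endothelial junctions, at 0.0653 log2 units, followed by Akt1 at 0.0918 and Kank2 at 0.0942. Cdh5 measured 11.6 and 12.4 CPM in vehicle naive brain, 60.9 in both vehicle tumor libraries, 12.4 and 10.8 in MRX-2843 naive and 11.5 in both MRX-2843 tumor libraries. The nearest to Slco1c1 were Pde4d at 0.0703, Glul at 0.0887 and Tmem44 at 0.0904 log2 units. Colgalt1 was nearest to Slc2a1 at 0.0344, Dhx9 to Mfsd2a at 0.0441 and Sh3gl1 to Abcb1a at 0.0629. Nearest to Plvap was Rgmb at 0.105, to Lsr Nek6 at 0.111 and to Ocln Zbtb1 at 0.122, so that these members had no gene as close as Cldn5 had. Plvap, Lsr and Ocln also had the lowest CPM of the members in vehicle naive brain. The part of counting noise in their distances was not tested.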

How the data were processed

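The deposited table holds the authors' whole-number read counts per gene, not normalized. The submitters' processing notes give STAR 2.7.7a, featureCounts, Subread, SAMtools and as genome builds mm10 and hg38, with no role for each. The annotation and the strand setting are not given in the sources used here. Of the gene identifiers, 52133 (94.1%) matched GENCODE M21 on GRCm38 when the version number was ignored and 35 when it was kept, so positions and lengths come from another release than the counts.

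Counts were fitted in edgeR 4.0.16 with limma 3.58.1 in R 4.3.3, with TMM scaling, filterByExpr by group (minimum count 10), a quasi-likelihood fit of 4 group means over all 8 libraries, 4 residual degrees of freedom and a common biological coefficient of variation of 21.0%. The threshold was a Benjamini-Hochberg adjusted p under 0.05 over 24356 genes. The SE was taken as the size of the log2 value divided by the root of its F statistic. The fit per endothelial level used the log of the summed counts of 12 endothelial genes as offset in place of the library size. CPM are counts scaled to a common TMM-scaled library total, and the number of counts limits the precision of scarce genes such as Lsr. The fit was also run on simulated counts. These had a lower biological coefficient of variation and fewer changed genes than the data, so they cannot show how the fit performs here. Python 3.11.15 with pandas 2.3.3, NumPy 2.4.6 and matplotlib 3.10.9 made tables and plots.

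No pair of libraries of a group differed by as little as sampling noise alone. Nearest genes used log2 CPM with a pseudocount of 0.1 CPM.

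The members, the gene lists and the tests were chosen with earlier results of these data known. Named are all 10 members, the 3 members of each other list with the smallest adjusted p in vehicle tumor against vehicle naive brain, Abcb1b, Abcb4, Cldn3, Cldn12, Pecam1, Cdh5, Wnt7a, Wnt7b and Vegfa, and the 3 genes nearest to each member. Flt1, Sele, Selp, Slc4a5, Gja1, Fgfr3, Vtn, Higd1b, Abcc9, Kcnj8, Rbfox3 and the overlapping Gm4673 and Gtpbp3 were named after their values were seen. The lists cover other junction genes, carriers, ABC pumps, barrier signals, caveolae and permeability genes, and markers of endothelium, pericytes, astrocytes, choroid plexus, oligodendrocytes, neurons, and microglia and macrophages.

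Alternatives were other size factors, library totals, DESeq2 1.42.0, other filters, a replicate block, only the groups compared, no mitochondrial genes, other endothelial sums, another length, each library left out and, added after results were seen, no genes of chromosomes X and Y.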

Additional observations from a re-analysis of the deposited data

Results flagged for a closer look

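For 8 of the 10 members the change from naive brain to tissue labelled tumor differed between MRX-2843 and vehicle, by the test of that difference in edgeR's quasi-likelihood fit. The same test called 51.6% of all genes, 25.3% lower and 26.3% higher. Among the junction genes, the difference in log2 fold change, MRX-2843 minus vehicle, was -2.37 for Cldn5 (adjusted p = 6.68e-10) and -1.92 for Lsr (adjusted p = 0.000758). Among the carriers it was -0.49 for Slc2a1 (adjusted p = 8.79e-05), -0.39 for Mfsd2a (adjusted p = 0.021) and 1.97 for Slco1c1 (adjusted p = 1.6e-09). For the efflux pumps it was -0.62 for Abcb1a (adjusted p = 0.00284) and -1.01 for Abcg2 (adjusted p = 8.13e-05), and for Plvap, the mark of fenestrated vessels, -2.29 (adjusted p = 5.9e-07). The oligodendrocyte markers differed in the same test, 8 of 8 higher with a median of 5.22, and their part in these results was not tested.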

How the results depend on the processing

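With library totals in place of TMM, the median over all genes went from -0.03 to 0.21 (log2) in vehicle tumor against naive brain and from 0.03 to -0.18 in MRX-2843 tumor against vehicle tumor; no member called there changed direction. Same-numbered libraries did not deviate together (r of the deviations from the group means -0.09 to 0.07 over the 6 pairs of groups). With 2 libraries a group, this cannot tell whether libraries of different groups come from the same animal. The replicate block changed no call of a member, with 9 higher and 1 lower in vehicle tumor and 14120 genes changed in all against 14626. For MRX-2843 tumor against MRX-2843 naive brain, 0 members were lower when only the groups compared were fitted. Leaving out each library in turn gave there 2 to 4 members higher and 0 to 1 lower, in MRX-2843 against vehicle naive brain 1 to 2 lower, and per endothelial level 1 to 2 higher in vehicle tumor. With 2 libraries a group, the one left is assumed to vary like the others.

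Values near 0 that were not called changed sign. In MRX-2843 against vehicle naive brain Abcb1a was -0.0153 with the median-of-ratios factors, -0.0143 in DESeq2 and -0.00456 with only the groups compared. Leaving out single libraries gave ranges in that comparison of -0.10 to 0.11 for Abcb1a, -0.19 to 0.12 for Plvap, -0.19 to 0.0336 for Cldn5 and -0.52 to 0.0338 for Lsr. In MRX-2843 tumor against MRX-2843 naive brain the ranges are -0.18 to 0.00261 for Cldn5, -0.23 to 0.32 for Lsr and -0.0368 to 0.19 for Mfsd2a, for the difference between treatments -0.41 to 0.0848 for Ocln, and per endothelial level in MRX-2843 tumor -0.000869 to 0.16 for Abcg2. Plvap per endothelial level in vehicle tumor was -0.0884 with 5 endothelial genes. The cause of these changes was not tested.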

Other observations

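The cells that wrap and touch brain capillaries were measured in the same libraries. Of 9 pericyte and mural cell markers, 5 rose in vehicle tumor against vehicle naive brain, 2 fell and 2 were not called, with a median log2 fold change of 0.31 in edgeR's quasi-likelihood fit. The sum of the 9 was 259 to 262 CPM in vehicle naive brain, 539.6 to 564 in vehicle tumor, 260.5 to 263 in MRX-2843 naive and 268 to 282 in MRX-2843 tumor. Pdgfrb, the receptor that keeps pericytes on vessels, went from 23.8 and 25.01 CPM to 127 and 138, and Cspg4, also a marker of glial precursors, from 19.3 and 17.9 to 178 and 179. Anpep, the aminopeptidase CD13 of pericytes and some myeloid cells, rose from 4.32 and 4.23 CPM to 25.4 and 24.2. Most of the higher sum lay in Pdgfrb and Cspg4. The 2 that fell were Vtn, from a mean of 86.0 CPM to 54.0 (log2 fold change -0.67 ± 0.06), and Higd1b, at -1.09 ± 0.29, while Abcc9 at -0.18 ± 0.16 and Kcnj8 at 0.02 ± 0.29 were not called (adjusted p = 0.343 and 0.97). Of the 9, 3 rose and 4 fell in MRX-2843 tumor against vehicle tumor, with a median of -0.17. The shares over all genes tested were 30.6% higher and 29.8% lower there. In vehicle tumor against vehicle naive brain they were 29.3% and 30.8%.

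Of 8 astrocyte markers, 5 fell in vehicle tumor, 1 rose and 2 were not called, with a median of -0.33. The 1 that rose was Aqp4, the water channel of the astrocyte endfeet on capillaries, at 164 and 170.0 CPM in vehicle tumor beside 80.5 and 76.7 in vehicle naive brain (log2 fold change 1.09 ± 0.08, adjusted p = 2.23e-08). Slc1a2, the glutamate carrier, fell from 1474 and 1463 CPM to 246 and 258. Of the 8, 6 rose and 1 fell in MRX-2843 tumor against vehicle tumor, and Aqp4 had a log2 fold change of -1.43 ± 0.09 (adjusted p = 1.09e-09). Of 8 choroid plexus markers, 1 rose in vehicle tumor and 2 fell, and in MRX-2843 tumor against vehicle tumor 2 rose and 1 fell. For astrocyte and choroid plexus markers alike, the shares over all genes were 29.3% higher and 30.8% lower in vehicle tumor. In MRX-2843 tumor against vehicle tumor they were 30.6% and 29.8%. Clic6, a chloride channel protein of choroid plexus, was at 19.0 and 20.6 CPM in MRX-2843 naive brain against 0.804 and 1.19 in vehicle naive brain. It was the 1 marker of the 8 that was higher there; Slc13a4 was lower, with means of 8.86 and 14.3 CPM, and 6 were not called, Ttr among them at 2.64 and 3.29 CPM. All 8 oligodendrocyte markers fell in vehicle tumor, with a median of -4.27, and all 8 microglia and macrophage markers rose, with a median of 3.12.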
